A study of Mus musculus with 4 samples.

Results

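Chromatin accessibility was described at 10 genes of the Notch pathway in mammary epithelial nuclei: the receptors Notch1, Notch2, Notch3 and Notch4, the ligands Jag1, Jag2 and Dll1, the target genes Hes1 and Hey1, and Rbpj, the DNA-binding factor of the pathway. They are 10 of the 21883 protein-coding genes counted, were listed by name, and all 10 had enough reads for the stage test. The nuclei came from 4 single-nucleus ATAC-seq libraries of wild-type mice of the outbred CD1 stock. ATAC-seq reads mark places where the Tn5 transposase could reach the DNA, and a barcode on each read names its nucleus. The 2 fetal libraries are biological replicates from glands at embryonic day 18, and the 2 adult libraries are biological replicates at 8 weeks of age. All 4 were made from cells sorted for the epithelial surface protein EpCAM and against lineage markers of other cells. The number of animals behind a replicate was not given in the sources used here.

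Notch receptors are single-pass membrane proteins that are activated by ligands of the Jagged and Delta-like families on a neighbouring cell. Ligand binding leads to cleavage of the receptor, and the freed intracellular part enters the nucleus, where it joins Rbpj and Mastermind-like coactivators on DNA and switches on genes such as those of the Hes and Hey repressor families. In the mammary gland Notch signalling is known for its role in luminal cell fate, and basal cells are known as a source of ligand.

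The libraries held 882 and 1695 fetal nuclei and 2465 and 2804 adult nuclei, with medians of 5536, 7488, 4420 and 5458 reads per nucleus. No nucleus barcode was shared between libraries. The authors' deposited table puts each of the 7846 nuclei in 1 of 14 numbered classes. By marker genes, classes 1, 8 and 4 were basal-like (10, 10 and 7 of 10 basal markers raised), classes 3, 7 and 9 luminal progenitor-like (9, 9 and 6 of 10) and classes 2 and 11 mature luminal-like (8 and 7 of 10). Class 6 was stromal-like, with 8 of 8 stromal markers raised, and also had 4 of 6 endothelial and 3 of 6 immune markers raised. Class 10 had 7 of 10 progenitor and 5 of 10 mature luminal markers raised. Class 14 had 7 of 10 mature luminal and 6 of 10 basal markers raised. Both were mixed by these markers and were left out of the groups above. Classes 5, 12 and 13, mainly of fetal nuclei, were in none of these groups either. In the 2 fetal libraries they held 201 and 337, 92 and 247, and 40 and 66 nuclei. Class 5 had 5 of 10 progenitor, 2 of 10 basal and 4 of 6 general luminal markers raised. Class 12 had 4 of 10 basal and 3 of 10 progenitor markers raised, and class 13 had 1 of 10 and 2 of 10. Stage and class nearly coincide: class 9 held 1037 fetal and 19 adult nuclei, class 4 held 470 and 6, and the mature luminal-like classes held 10 fetal and 2076 adult nuclei. In whole libraries, therefore, a different share of cell types and a different accessibility per nucleus cannot be told apart. Summed reads over the 10 mature luminal markers were 485 and 550 counts per 1000000 reads over all genes (CPM) in fetal and 949 and 988 in adult libraries. Over 10 basal markers the sums were 611 and 653 fetal against 490 and 603 adult. Over 6 markers of all luminal cells they were 483 and 477 against 644 and 550. Over 10 luminal progenitor markers they overlapped between stages, at 464 and 439 against 476 and 420. Their part in the whole-library differences was not tested. The same sums over 8 stromal markers were 283 and 284 against 198 and 219, over 6 endothelial markers 154 and 169 against 150 and 153, and over 6 immune markers 85.6 and 78.8 against 80.2 and 81.6. No marker gene was at 0 in any library.

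The upstream sequences of 3 genes are shown here because regions at or near their 5' ends passed a stage test in the results that follow. The Dll1 window lies between the 2 promoter regions tested for that gene, of which the one inside the gene passed, and the call at the Notch1 5' end was lost in 6 of 9 alternatives. Each is the 250 bases before the outermost start site listed by RefSeq on build GRCm38.p6, written 5' to 3' on the strand of the gene. Searched on both strands were TGGGAA and GTGGGAA (core letters of the Rbpj site), CACGTG (an E-box) and CACGCG (a site type of Hes and Hey proteins). Capitals mark any of these letters. GTGGGAA contains TGGGAA, so the searches overlap. Notch1 is read from chr2:26503823-26504072 (minus strand), Jag1 from chr2:137116521-137116770 (minus strand) and Dll1 from chr17:15376933-15377182 (minus strand).
Notch1: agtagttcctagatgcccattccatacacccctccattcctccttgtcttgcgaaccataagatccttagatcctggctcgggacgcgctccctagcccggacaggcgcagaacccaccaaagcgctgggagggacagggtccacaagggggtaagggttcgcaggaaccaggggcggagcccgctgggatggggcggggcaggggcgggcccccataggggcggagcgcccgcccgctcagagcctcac
Jag1: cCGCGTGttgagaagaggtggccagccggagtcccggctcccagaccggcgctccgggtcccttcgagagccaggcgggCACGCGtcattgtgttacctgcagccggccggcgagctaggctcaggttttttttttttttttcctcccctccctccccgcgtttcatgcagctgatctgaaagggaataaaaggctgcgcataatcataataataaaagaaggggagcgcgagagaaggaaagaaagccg
Dll1: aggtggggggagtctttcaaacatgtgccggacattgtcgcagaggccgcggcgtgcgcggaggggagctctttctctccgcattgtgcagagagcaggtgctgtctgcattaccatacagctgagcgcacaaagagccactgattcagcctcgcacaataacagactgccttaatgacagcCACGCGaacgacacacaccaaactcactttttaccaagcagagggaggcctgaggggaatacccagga
Jag1 held CACGCG 171 bases before its start and, as the other strand's CGCGTG, again at 249 bases, Dll1 held CACGCG at 68 bases, and the Notch1 window held none of the 4. Among all 32851 listed windows of this length, CACGCG was found in 7.62%, TGGGAA in 21.6%, GTGGGAA in 5.42% and CACGTG in 6.02%. In windows not printed, Notch2 held CACGCG at 42 bases, and the outer Rbpj window, which lies inside the annotated span of that gene, held TGGGAA at 149 bases and TTCCCA, the other strand's form, at 65 bases. These are matches of letters and were not tested as binding sites. The unprinted windows of Jag2, Notch3, Notch4 and the inner Dll1 start held none of the 4. Those of Jag2 and the inner Dll1 start lie inside promoter regions that passed the stage test. Hes1 and Hey1 were not among the sequences.

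Accessibility of a gene was taken as the reads over its span plus 2 kb on either side, in CPM. Longer genes collect more reads, so levels of different genes are compared per kb of that window. Per kb, the mean of the 4 libraries was 18.4 CPM at Hes1, 8.37 at Hey1, 5.12 at Dll1, 4.38 at Jag1 and 3.29 at Notch1. It was 1.99 at Jag2, 1.94 at Notch4, 1.82 at Notch2, 1.67 at Notch3 and 1.47 at Rbpj. Hes1 stood at percentile 99.9 of all tested genes and Rbpj at percentile 59.5. The 2 shortest genes therefore had the densest reads, and Rbpj, a long gene, the sparsest of the 10.

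The first comparison asks how the pathway's chromatin differs between fetal and adult epithelium, library against library. Notch1, Jag2, Dll1 and Hey1 were more accessible in fetal than in adult nuclei, and the other 6 genes did not pass the test. Jag2 changed most, 1.85-fold, followed by Dll1 at 1.75-fold, Notch1 at 1.72-fold and Hey1 at 1.28-fold. Of all 18804 genes tested, 22.2% passed at an adjusted p under 0.05 (edgeR quasi-likelihood test, Benjamini-Hochberg), 11.3% in the fetal direction and 10.9% in the adult direction. The members' median log2 change was 0.07, and that of all tested genes 0.01.

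Among the receptors, Notch1 (chr2:26457902-26503822, mm10) gave 221 and 195 CPM in fetal and 125 and 116 CPM in adult libraries. Both fetal libraries lay above both adult libraries. The log2 difference was 0.78 (SE 0.11, edgeR adjusted p = 0.000293). Notch2 (chr3:98013538-98150367) lay the other way, at 242 and 235 CPM fetal against 280 and 270 adult. The groups did not overlap, but the difference of -0.20 (SE 0.09) did not pass the test (edgeR adjusted p = 0.134). Notch3 (chr17:32120820-32166896), at 77.2 and 85.6 against 93.3 and 79.0 CPM, overlapped between stages. Notch4 (chr17:34564286-34588543) had 59.1 and 58.5 CPM in fetal and 52.7 and 48.6 in adult libraries, a log2 difference of 0.22 that did not pass (SE 0.12, edgeR adjusted p = 0.244).

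Among the ligands, Jag2 (chr12:112907803-112929812) had 72.9 and 62.0 CPM in fetal libraries and 34.8 and 37.5 in adult ones. The log2 difference was 0.89 (SE 0.14, edgeR adjusted p = 0.000526). Dll1 (chr17:15367354-15376932) had 82.1 and 94.6 CPM against 49.9 and 51.6, a log2 difference of 0.81 (SE 0.12, edgeR adjusted p = 0.000526). At both genes each fetal library lay above each adult library. Jag1 (chr2:137081451-137116520) had lower fetal values, 142 and 165 CPM against 186 and 192, and its difference of -0.29 did not pass (SE 0.11, edgeR adjusted p = 0.0667).

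Hey1 (chr3:8663359-8667038), a repressor induced by Notch, had 71.4 and 72.8 CPM in fetal and 57.2 and 55.7 in adult libraries. Its log2 difference of 0.35 (SE 0.12, edgeR adjusted p = 0.0459) passed narrowly, and 8 of 12 alternatives ended the call. Over all 12 the adjusted p ran from 0.00937 to 0.257. Leaving out fetal replicate 1, fetal replicate 2 or adult replicate 2 was enough to lose it. Hes1 (chr16:30065357-30067796), the other target, had 119 and 99.5 CPM against 134 and 121, and did not pass (-0.23, SE 0.12, edgeR adjusted p = 0.194). It passed in 2 of 12 alternatives, the gene span alone and a replicate block. Over the 12 its log2 difference ran from -0.56 to -0.11. Rbpj (chr5:53555779-53657445) was nearly level, at 148 and 147 CPM against 159 and 165 (-0.14, SE 0.10, edgeR adjusted p = 0.381). Notch1, Jag2 and Dll1 passed under all 13 alternatives tried for them.

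**Figure D1:**
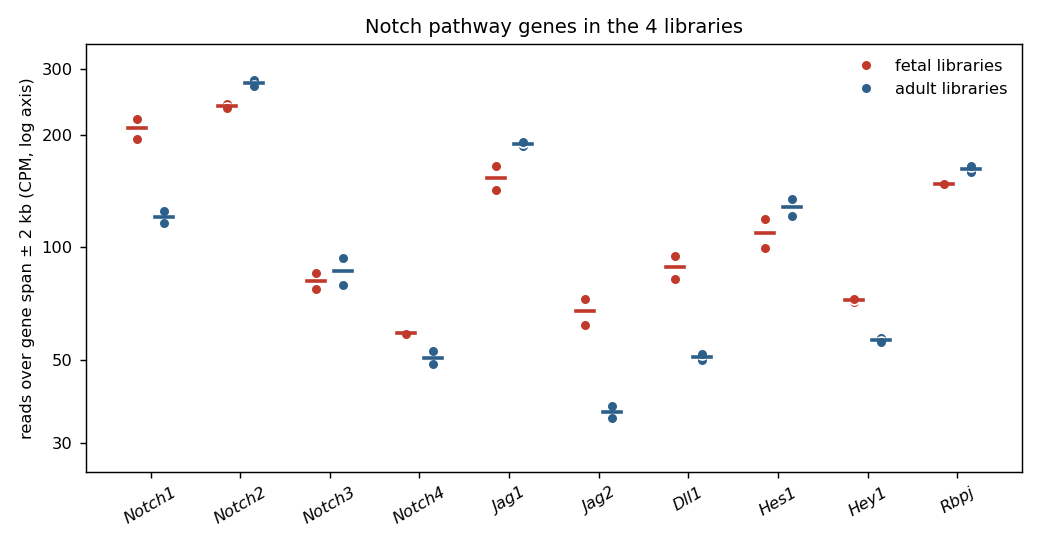
Reads over each gene span plus 2 kb, in CPM on a log axis, for the 2 fetal (red) and 2 adult (blue) libraries. Points are libraries and bars are the means of 2. At Notch1, Jag2, Dll1 and Hey1 both fetal points lie above both adult points and the difference passed the test.

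Of 56 other pathway genes, listed in groups and all tested, 10 passed in the fetal direction and 5 in the adult direction. The share, 26.8%, stands beside 22.2% of all genes. The largest fetal differences were at Dlk1, a Delta-like protein without the receptor-activating domain (14 and 18.7 against 5.78 and 6.06 CPM, log2 1.48), at Dtx1, a Deltex ubiquitin ligase (1.02), and at Dll3, a further Delta-like ligand (0.81). The largest adult differences were at the repressor gene Hes2 (17.0 and 9.15 against 32.2 and 26.5 CPM, log2 -1.25), at Hey2 (-0.43) and at Neurl1a, a ubiquitin ligase of the Neuralized family (-0.40). By group, 2 of 4 other ligands and 2 of 5 genes of receptor glycosylation passed, all higher in fetal nuclei, the latter being Lfng and Mfng at edgeR adjusted p of 0.0485 and 0.04996. Of 7 coactivator genes 1 passed, higher in fetal nuclei, and the 10 corepressor genes split 1 to 1. None of the 9 genes of the cleaving proteases passed with edgeR or with DESeq2 (2 at an unadjusted edgeR p under 0.05). The 11 genes of endocytosis and turnover split 3 to 2, and the 10 other targets split 1 to 2.

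Levels were next described by class, in the 26 combinations of class and library with at least 50 nuclei. No test was made, since the classes were formed from the accessibility of the same nuclei. Dll1 and Jag2 shared a pattern: both were highest in class 1 and lower in the mature luminal-like classes. Dll1 stood at 141 CPM in class 1, 126 in class 12, 123 in class 8 and 117 in class 4, then at 78.9 in class 9, 71.3 in class 5 and 65.3 in class 3. It was lowest in class 2, at 19.5 CPM. The ranges of classes 1, 12 and 8 over libraries overlapped in turn, and class 4 lay apart from class 9. Jag2 stood at 111 CPM in class 1, 107 in class 8, 103 in class 12, 82.4 in class 13, which was measured in 1 library, and 74.0 in class 4. The range of class 4 over libraries, 65.7 to 82.3, overlapped that of class 5, 53.4 to 75.5. It was lowest in class 7, at 13.5 CPM, beside 40.2 CPM in class 3, the other adult progenitor-like class, with ranges over libraries of 11.4 to 15.5 and 36.5 to 43.9. Class 1 differed between the adult libraries, from 80.8 to 141 CPM at Jag2 and from 107 to 175 at Dll1. Across the 26 combinations the log2 levels of the pair correlated at r = 0.86, the highest of the 45 pairs of members; the points share libraries and depth.

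Jag1, the third ligand, was highest in class 1 at 281 CPM, where its range lay above that of every other class, and lowest in class 7 at 114. Unlike Dll1 and Jag2 it was also high in the mature luminal-like classes, at 205 CPM in class 2 and 225 in class 11. Jag1 and Notch1 had the most negative correlation among the pairs of members, r = -0.73.

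Notch1 was highest in the fetal class 5 at 288 CPM, from 279 to 296 over its 2 libraries, above every other class. Class 9 followed at 218, class 12 at 195 and class 7 at 181, with the ranges of these neighbours overlapping for classes 9, 12 and 7. The adult basal-like classes 1 and 8 were low, at 84.8 and 53.3 CPM, and the mature luminal-like classes 2 and 11 lay between, at 106 and 97.6. Notch3 had its highest levels in class 7 at 107 CPM and class 2 at 106, which overlapped, and its lowest in classes 1 and 8 at 38.2 and 28.1. Notch2 varied less, from 213 CPM in class 12 to 378 in the stromal-like class 6, whose 2 adult libraries gave 308 and 447. Among epithelial classes Notch2 was highest in classes 7 and 3, at 332 and 307 CPM. Notch4, a receptor known mainly from endothelium, was highest in class 5 at 72.6 and in class 9 at 62.0 CPM, and lowest in class 6 at 30.8. That class had 13 and 10 reads at Notch4, and its range, 22.7 to 38.9 CPM, overlapped that of class 4, 31.2 to 52.9.

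Hes1 was highest in class 2, at 167 CPM with a range of 164 to 169 above that of every other class, and lowest in class 8 at 73.0. Hey1 was lowest in class 2, at 44.2 CPM, and highest in class 12 at 103, although class 12 ran from 79.2 to 127. Rbpj ranged from 117 CPM in class 8 to 175 in class 7 among classes measured in 2 libraries, and reached 211 in class 14, which was measured in adult library 2 alone. The 2 Notch targets thus differed in the class with the lowest mean. At Hes1 the range of class 8 overlapped those of classes 4 and 1, among others. At Hey1 the range of class 2 lay inside those of classes 6 and 4.

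**Figure D2:**
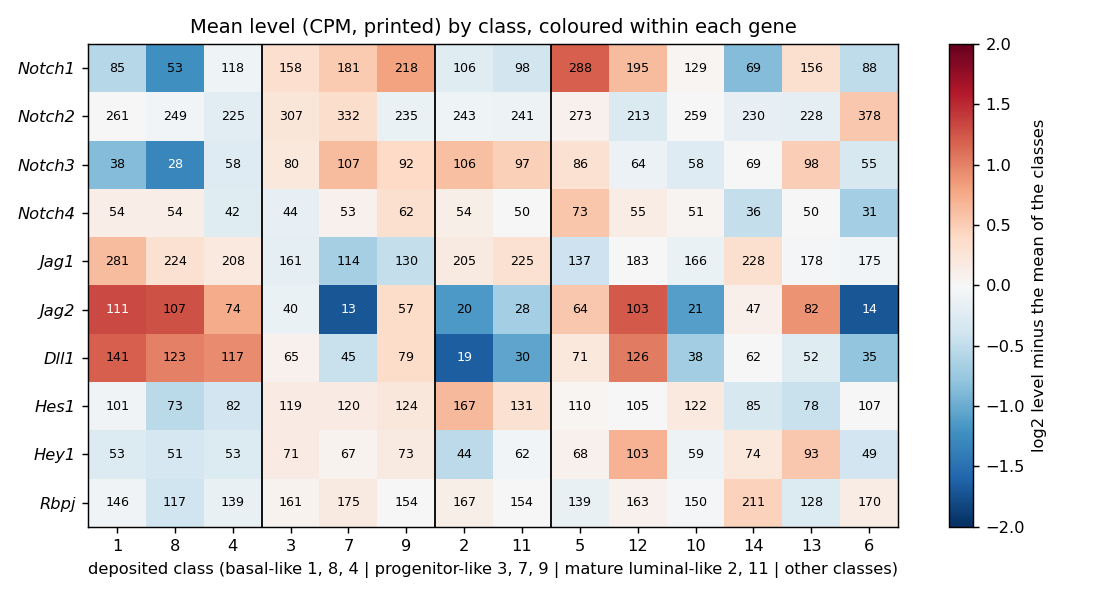
Mean CPM of each gene (rows) in each deposited class (columns), over the libraries with at least 50 nuclei of that class. Numbers are CPM and colours are log2 levels minus the gene's mean over the classes. Jag2 and Dll1 are red in classes 1, 8, 4 and 12 and blue in classes 2 and 11, and Notch3 is blue in classes 1 and 8.

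The genes whose class pattern was most like each member's were taken from 10476 genes over the 26 combinations. For Dll1 these were Pdzd2 (r = 0.95) and Slc1a3 (0.92), and for Jag2 they were Ptpn14 (0.93) and Cdh3 (0.93), the gene of P-cadherin. For Notch1 they were Map3k1 (0.89) and Farp2 (0.85), for Jag1 Prkce (0.89) and Ppp2r2b (0.83), and for Notch3 Vipr1 (0.83) and Epb41l1 (0.81). Notch2 was most like Dapk1 (0.77) and Ddhd2 (0.77), Notch4 most like Plekhg5 (0.78) and Cdc42bpg (0.77). Hes1 was most like Shb (0.80) and Adrm1 (0.80), Rbpj most like Cnot8 (0.81) and Pdap1 (0.76), and Hey1 had the weakest match, with Cmya5 (0.67) and Tcaim (0.67).

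Within the adult gland, basal-like (classes 1 and 8), progenitor-like (3 and 7) and mature luminal-like (2 and 11) nuclei were compared inside each library, and a gene was counted when it differed at least 1.5-fold the same way in both. The ligand genes Jag1, Jag2 and Dll1 were counted as higher on the basal side and the receptor genes Notch1 and Notch3 on the progenitor side. Against progenitor-like nuclei, 3 members were counted as higher in basal-like nuclei (8.27% of 17402 genes were) and 2 as lower (8.44%). Jag2 had 125 and 93.8 CPM in basal-like and 22.1 and 25.3 in progenitor-like nuclei, 4.29-fold. That fold was 7.09 for class 1 against class 7 and 2.60 for class 8 against class 3. Dll1 had 152 and 114 against 51.7 and 53.5 CPM, 2.45-fold, and Jag1 had 268 and 242 against 132 and 130, 1.93-fold. The Jag1 fold fell to 1.40 and was not counted for class 8 against class 3, and was 2.92 over the gene span alone. Notch1 had 70.6 in both basal-like sums against 176 and 166 CPM, 2.39-fold lower in basal-like nuclei. Notch3 had 29.5 and 37.7 against 106 and 86.5 CPM, 2.76-fold lower. Of the Delta-like ligand genes outside the 10, Dll4 (19.7 and 18.3 against 21.3 and 25.1 CPM) and Dll3 (9.85 and 12.5 against 17.8 and 12.1 CPM) were not counted. Folds are on a scale with 2 CPM added to each level.

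Between the luminal lineages, Jag1 was higher in mature luminal-like than in progenitor-like nuclei (216 and 202 against 132 and 130 CPM, 1.58-fold), beside 8.25% of all genes counted in that direction. Dll1 (22.7 and 21.0 against 51.7 and 53.5 CPM, 2.29-fold) and Notch1 (98.3 and 109 against 176 and 166 CPM, 1.64-fold) were lower in mature luminal-like nuclei, beside 7.05%. Notch3 was at 108 and 95.7 CPM in mature luminal-like nuclei, within 1.11-fold of progenitor-like nuclei in each library. At a 2-fold minimum, or with classes 3 and 11 alone, 1 of these 3 members, Dll1, was counted. With those classes Jag1 differed by 1.40-fold. Over the gene span alone, with both classes of each lineage, Jag1 differed by 2.38-fold. Between basal-like and mature luminal-like nuclei, Jag2 (4.57-fold) and Dll1 (5.61-fold) were higher on the basal side, beside 10.7% of genes, and Notch3 was 2.93-fold lower, beside 13.1%. Hes1 was at 159 and 152 CPM in mature luminal-like nuclei and at 112 and 65.4 in basal-like nuclei, and was not counted because the first library fell short of 1.5-fold.

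Among the 56 other pathway genes, 3 were counted as higher in basal-like than in progenitor-like nuclei (Dlk1, Dlk2 and the glycosyltransferase gene Lfng) and 4 as lower (Neurl1b, Dtx2, Hes2 and Ccnd1, the cyclin D1 gene), beside 8.27% and 8.44% of all genes. For mature luminal-like against progenitor-like nuclei, 5 were higher and 4 lower, beside 8.25% and 7.05%, and the 4 lower included the Hey-family genes Hey2 and Heyl. For basal-like against mature luminal-like nuclei, 4 were higher and 8 lower, beside 10.7% and 13.1%. The ligand gene Dll4 was among the 8 lower (19.7 and 18.3 CPM in basal-like against 39.7 and 31.0 in mature luminal-like nuclei).

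The stage difference was then taken within each side of the epithelium, with fetal class 9 set against adult classes 3 and 7, and fetal class 4 against adult classes 1 and 8. In the luminal comparison, 15.8% of 17372 genes passed, and 3 members did. Jag2 and Dll1 were higher in fetal nuclei, as were 7.75% of all tested genes, and Notch2 was lower, as were 8.04%. Jag2 had 60.5 and 52.5 CPM in class 9 against 22.6 and 25.6 in classes 3 and 7, a log2 difference of 1.22 (SE 0.20, edgeR adjusted p = 0.000223). Its size depended on the adult class: against class 3 alone it was 0.48 and did not pass, and against class 7 alone it was 2.04. Dll1 had 70.8 and 85.8 against 52.6 and 54.1 CPM, a log2 difference of 0.57 (SE 0.16, edgeR adjusted p = 0.0191). The Dll1 call was lost in 6 of 14 alternatives, among them without adult replicate 1 and without fetal replicate 2, with adjusted p from 0.000651 to 0.42. Notch2 had 243 and 224 CPM against 333 and 322, a log2 difference of -0.49 (SE 0.11, edgeR adjusted p = 0.00263), and lost its call only with a window of 2 kb around the 5' end. Notch1 had 239 and 194 against 180 and 168 CPM (0.31, SE 0.12, edgeR adjusted p = 0.0988). It passed in 2 of 14 alternatives, one of them the addition of fetal class 5 to class 9. Hey1, called in whole libraries, overlapped between stages here, at 72.6 and 71.2 against 71.8 and 67.7 CPM (0.04, SE 0.15, edgeR adjusted p = 0.893).

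In the basal comparison, 6.16% of 16472 genes passed, 2.98% higher and 3.18% lower in fetal nuclei, and 1 member, Notch1, did, on the higher side. Notch1 had 109 and 128 CPM in class 4 and 71.7 and 71.8 in classes 1 and 8, a log2 difference of 0.74 (SE 0.22, edgeR adjusted p = 0.0369). Leaving out any 1 of the 4 libraries ended the call, as did 5 other alternatives, and its log2 difference ranged from 0.49 to 1.14. Jag2 lay the other way, at 82.0 and 65.8 CPM in class 4 against 127 and 95.4, without passing (-0.60, SE 0.24, edgeR adjusted p = 0.123), and its sign turned, to 0.18, with a window of 2 kb around the 5' end. Notch3 had 58.0 and 57.5 against 30.0 and 38.4 CPM (0.73, SE 0.29, edgeR adjusted p = 0.133). Dll1 had 117 CPM in both fetal sums and 154 and 116 in the adult ones, which overlapped.

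The stage difference itself differed between the basal and luminal sides at Jag2 and Dll1, 2 of 10 members, beside 6.07% of 17064 genes. Both had a lower change on the basal side, the direction of 3.64% of genes, while 2.43% of genes passed in the other direction. For Jag2 the basal change minus the luminal change was -1.84 on the log2 scale (SE 0.29, edgeR adjusted p = 1.59e-07), and it passed in all 6 alternatives, from -2.15 to -1.54. For Dll1 it was -0.79 (SE 0.24, edgeR adjusted p = 0.0263), and 4 of 6 alternatives ended the call, 2 of them leaving out adult replicate 1 or fetal replicate 2. In adult nuclei the basal and progenitor sides were therefore farther apart at these ligand genes than classes 4 and 9 were in fetal nuclei. Notch1 (0.42, SE 0.21) and Notch3 (0.73, SE 0.29) did not pass, with edgeR adjusted p of 0.289 and 0.129. No alternative of this test changed the classes or the window.

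**Figure D3:**
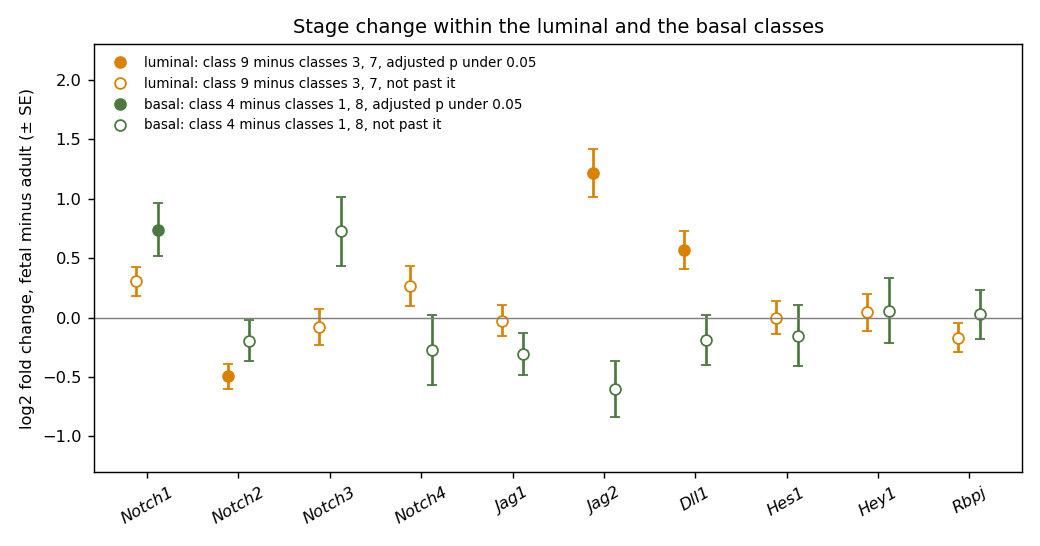
Log2 fold change, fetal minus adult, with its SE, for each gene in the luminal classes (orange) and the basal classes (green). Filled points passed an adjusted p of 0.05. Jag2 lies at 1.22 in the luminal classes and at -0.60 in the basal classes.

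Of the 56 other pathway genes, 8 were higher and 4 lower in the luminal comparison, which is 21.4% beside 15.8% of all tested genes. The largest were Mfng (1.25), Hes3 (1.21) and Dtx1 (1.11) in the fetal direction and Hey2 (-0.93), Heyl (-0.84) and Neurl1b (-0.75) in the adult direction. In the basal comparison 1 of 56 was higher, the glycosyltransferase gene Mfng (1.85), beside 2.98% of all tested genes. Genes at which the stage change differed between the sides included Lfng (-1.08) and Ccnd1 (1.11).

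Regions deposited by the authors show where along the loci the reads lay. Of their 145453 distal regions, 1000 bases each, 218 lay within 50 kb of a member. Of the 201 with enough reads, 70 passed, which is 34.8% beside 35.3% of all 122865 tested regions. In the fetal direction there were 33, beside 16.6% of all regions, and in the adult direction 37, beside 18.8%. The balance differed by gene. Near Notch1, 13 of 38 tested regions were higher in fetal and 3 in adult nuclei, near Jag2 it was 3 and 0 of 19, near Notch2 6 and 12 of 34, and near Notch3 0 and 4 of 20. No test between the genes was made, and such regions can belong to neighbouring genes.

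**Figure D4:**
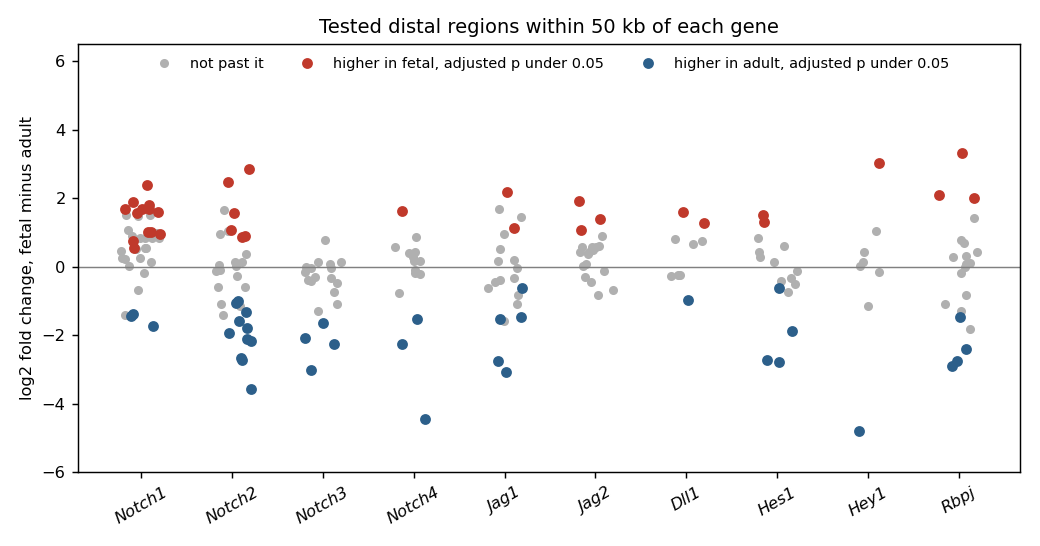
Log2 fold change, fetal minus adult, of each tested distal region within 50 kb of a member. Red and blue points passed an adjusted p of 0.05 in the fetal and the adult direction. Near Notch1 13 points are red and 3 blue, and near Notch3 0 are red and 4 blue.

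Promoter regions were tested as a separate list of 18570, of which 21.5% passed. Within 50 kb of the 10 genes, 10 of 31 promoter regions passed, 7 higher (10.5% of all promoter regions were) and 3 lower in fetal nuclei (11%). Of these 10 regions 4 belong to members and 6 to neighbouring genes. The count was 6 with DESeq2 or total-read scaling and 3 without fetal replicate 2. The Jag2 promoter (chr12:112928798-112929797) had 61.7 and 45.4 CPM fetal against 23.3 and 31.8 adult, a log2 difference of 0.91 (SE 0.23, edgeR adjusted p = 0.00189; 0.0532 without adult replicate 1, and from 0.000628 over the alternatives). The Dll1 promoter region at chr17:15375500-15376499 had 103 and 114 CPM against 64.5 and 62.2, a log2 difference of 0.79 (SE 0.15, edgeR adjusted p = 8.01e-05). A second Dll1 region farther upstream, chr17:15377498-15378497, did not pass (0.53, SE 0.26, edgeR adjusted p = 0.144). The Jag1 promoter (chr2:137116344-137117343), which holds the upstream sequence printed above, fell: 119 and 140 CPM fetal against 193 and 185 adult, -0.52 (SE 0.12, edgeR adjusted p = 0.000975). That call was lost without fetal replicate 1, over alternatives with adjusted p from 0.000106 to 0.0564. The Hey1 promoter (chr3:8666794-8667793) rose by 0.39 (SE 0.13, edgeR adjusted p = 0.0202) and lost its call without fetal replicate 2, without adult replicate 2 and with scaling to total reads. The 5' end of Notch1 lies in a region of the distal list, chr2:26503236-26504235. On the scale of that list the region had 65.5 and 42.5 CPM against 36.1 and 35.8 (0.56, SE 0.21, edgeR adjusted p = 0.0357). That call was lost in 6 of 9 alternatives, among them without fetal replicate 1 (log2 0.25, edgeR adjusted p = 0.497), without adult replicate 1 and without adult replicate 2. The promoters of Notch2, Notch3 (2 regions), Notch4 and Hes1 (2 regions) did not pass, with log2 differences from -0.22 to 0.61. Rbpj had no promoter region of its own in the deposited list.

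At Notch1, an intragenic region 15.9 kb into the gene, chr2:26487443-26488442, had 22.7 and 20.0 CPM in fetal and 4.38 and 3.80 in adult libraries (log2 2.38, SE 0.34, edgeR adjusted p = 6.55e-07). It held 11.3 and 3.54 reads per 1000000 of all reads of those nuclei (RPM) in fetal class 4 and 5.29 and 7.06 in class 9. In adult nuclei it held 3.84 and 3.69 in progenitor-like nuclei, against 0 and 1.00 in basal-like and 0 and 0.733 in mature luminal-like nuclei, where 3 reads would give 1.86 and 0.751, and 0.522 and 0.367. A region 9.48 kb into the gene, chr2:26493844-26494843, chosen after its values were seen, went the other way (13.7 and 6.30 against 22.6 and 24.8 CPM, -1.38, SE 0.31, edgeR adjusted p = 0.000576). Without fetal replicate 2 it was -0.74 and did not pass (edgeR adjusted p = 0.11). It held 16.0 and 17.1 RPM in mature luminal-like nuclei against 4.26 and 3.50 in progenitor-like and 1.24 and 0.751 in basal-like nuclei. Over the whole gene, in contrast, mature luminal-like nuclei lay below progenitor-like and above basal-like nuclei (98.3 and 109 CPM against 176 and 166, and against 70.6 in both).

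Dll1 had a region just past its 3' end, chr17:15365675-15366674, with 27.8 and 29.6 CPM fetal against 11.3 and 12.6 adult (1.26, SE 0.26, edgeR adjusted p = 0.000178). In adult nuclei it was at 14.9 and 11.8 RPM in basal-like, 5.54 and 8.17 in progenitor-like and 0.696 and 0 in mature luminal-like nuclei, the order of the gene itself. Jag2 had a region 3.23 kb past its 3' end, chr12:112903576-112904575, with 8.98 and 12.9 against 2.55 and 3.27 CPM (1.93, SE 0.43, edgeR adjusted p = 0.000485). Near Jag1, chr2:137067273-137068272, which lies in the neighbouring gene Slx4ip, was lower in fetal libraries (6.42 and 4.52 against 11.1 and 17.7 CPM, -1.47, SE 0.38, edgeR adjusted p = 0.00215). That call was lost without adult replicate 2 and without fetal replicate 2 (edgeR adjusted p up to 0.0637). In adult nuclei it held 25.4 and 21.8 RPM in basal-like nuclei, against 1.28 and 2.33 in progenitor-like and 0.696 and 1.22 in mature luminal-like nuclei.

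**Figure D5:**
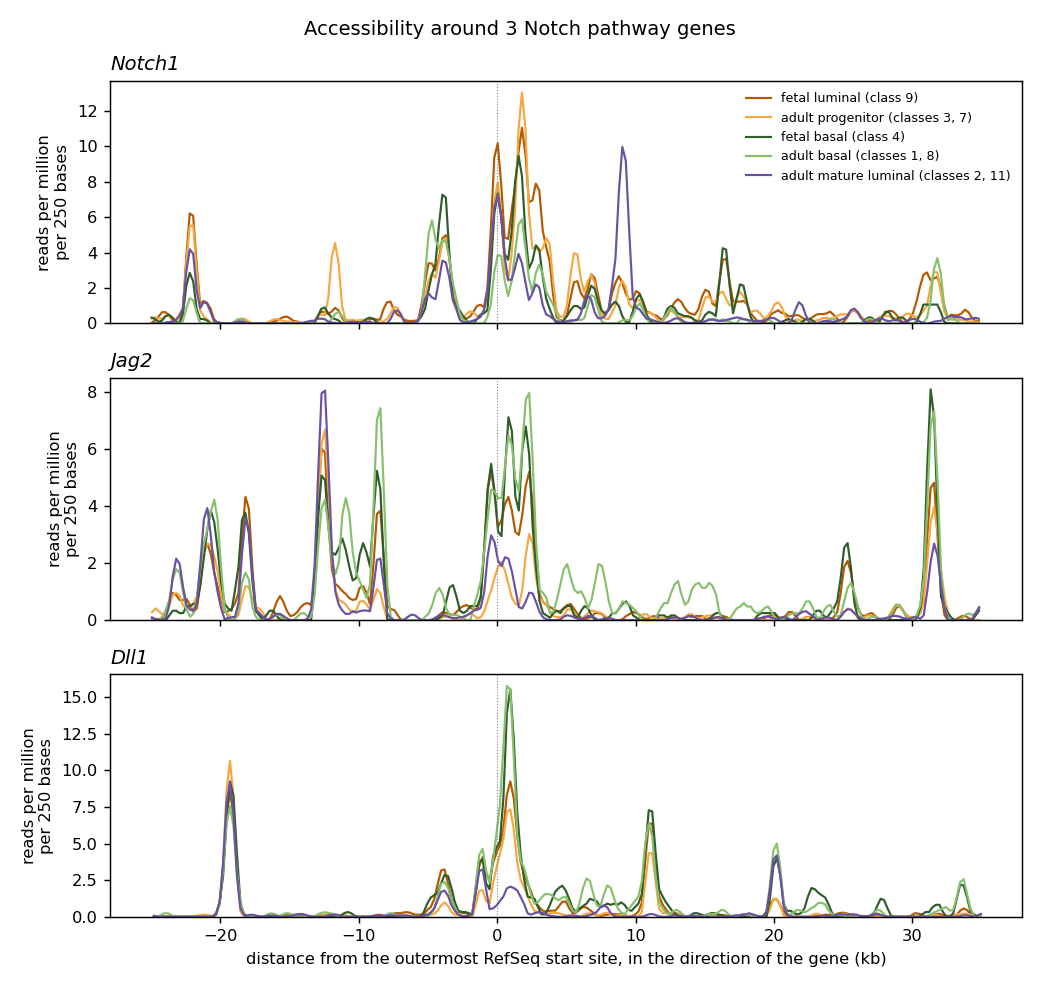
RPM per 250 bases (moving mean of 3 bins, libraries of a stage pooled) against distance from the outermost RefSeq start site, for Notch1, Jag2 and Dll1 in 5 sets of nuclei. At Dll1 the 5' peak is tallest in the basal sets and lowest in mature luminal nuclei, and at Notch1 the mature luminal set has a peak 9.48 kb into the gene.

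The median log2 difference of all tested distal regions was -0.24 near Hes1, 0.08 near Hey1 and 0.08 near Rbpj. The regions described next were picked among those that passed. Near Hes1, chr16:30090011-30091010, 22.2 kb from the gene, had 5.99 and 7.91 CPM in fetal and 54.4 and 41.0 in adult libraries (-2.71, SE 0.27, edgeR adjusted p = 3.19e-10). In adult nuclei it was highest in mature luminal-like nuclei at 35.2 and 23.8 RPM, beside 13.4 and 14.2 in progenitor-like and 4.95 and 4.26 in basal-like nuclei. The fetal class 9 held 3.53 and 4.06, below the adult progenitor-like values. A second region, chr16:30052820-30053819, 11.5 kb away on the other side, had 0.428 and 4.36 against 21.3 and 21.0 CPM (-2.78, SE 0.41, edgeR adjusted p = 8.41e-07). It passed in every alternative tried, but its size was -5.50 without fetal replicate 2 and -2.27 without fetal replicate 1. Its adult reads lay in mature luminal-like nuclei, at 16.2 and 17.6 RPM, with 0 and 0.778 in progenitor-like and 0 and 1.00 in basal-like nuclei. Higher in fetal libraries near Hes1 were chr16:30021991-30022990 (1.5, SE 0.40) and chr16:30038832-30039831 (1.3, SE 0.41), with edgeR adjusted p of 0.00283 and 0.0107. The first lost its call with DESeq2 and without fetal replicate 2 (log2 0.93), and the second with DESeq2 and without adult replicate 1 (log2 0.99), at adjusted p up to 0.211 and 0.144.

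Upstream of Rbpj, chr5:53525513-53526512, 29.3 kb before the gene, had 15.8 and 16.3 CPM in fetal against 1.82 and 1.44 in adult libraries (3.30, SE 0.43, edgeR adjusted p = 1.04e-07). It was open on both sides of the fetal epithelium, at 7.05 and 6.76 RPM in class 9 and 7.21 and 6.43 in class 4. Inside Rbpj, chr5:53646182-53647181 had 1.71 and 0.807 against 6.57 and 9.95 CPM (-2.90, SE 0.59, edgeR adjusted p = 0.000156), and its adult reads were in mature luminal-like nuclei (5.57 and 8.07 RPM). Basal-like and progenitor-like nuclei had 0 reads there in both libraries, where 3 reads would give 1.86 and 0.751, and 0.639 and 0.583 RPM. Near Notch2, chr3:98197826-98198825, closest to the gene Reg4, had 0.856 and 1.29 against 12.4 and 15.3 CPM (-3.56, SE 0.50, edgeR adjusted p = 3.72e-07) and held 9.05 and 12.8 RPM in mature luminal-like nuclei. Within Notch2, chr3:98104447-98105446 (2.86, SE 0.50) and chr3:98038268-98039267 (2.47, SE 0.37) were higher in fetal libraries. The mature luminal-like classes held 2076 adult and 10 fetal nuclei, and their part in the stage differences of these regions was not tested.

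Co-accessibility scores deposited by the authors link regions that open in the same nuclei, with all nuclei pooled, so they have no replicate. A score of 0.1 was reached, in the authors' deposited table, by 74 links of the members' own promoter regions or, for Notch1, of the region in the distal list at its 5' end. Hes1 had 29 of them from its 2 promoter regions, which reached 14 distinct distal regions, and Dll1 had 19, to 19 distinct regions, followed by Jag2 with 8, Notch1 with 7, Hey1 with 5, Jag1 with 4 and Notch3 with 2. Notch2 and Notch4 had none, with highest scores of 0.0861 and 0.00376. Rbpj had no region of its own from which links could be counted. The pairs listed per member differed, from 58 at Jag1 to 273 at Notch3. The counts were not set beside those of other promoters. The strongest link of Dll1 (0.39) joined its promoter region to the region past its 3' end described above, 9.83 kb away, followed by 2 regions 152 and 145 kb away (0.368 and 0.366). For Hes1 the highest scores were to chr16:30070003-30071002 (0.357 and 0.343 from its 2 promoter regions) and to chr16:30090011-30091010 (0.347), the region higher in adult nuclei. The highest scores of Jag2 (0.219), Hey1 (0.254), Notch1 (0.161), Notch3 (0.149) and Jag1 (0.135) were lower. That of Notch3 joined its own 2 promoter regions, 1.28 kb apart, and its highest score to a distal region was 0.112.

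The deposited chromVAR table scores how far accessibility at regions with a motif departs from background in each nucleus. Of its 427 motif columns, 290 (67.9%, with 32.3% higher and 35.6% lower in fetal nuclei) differed between stages (limma on library means, Benjamini-Hochberg adjusted p under 0.05), and none of the 4 columns named for Rbpj, Hes1, Hey1 and Heyl did (0 at an unadjusted limma p under 0.05). The Rbpj score averaged -0.0872 and -0.029 in fetal and 0.0382 and 0.0338 in adult libraries, a difference of -0.09 (SE 0.05, limma adjusted p = 0.12). The Hes1 score differed by 0.08 (SE 0.04, limma adjusted p = 0.152). The columns of Hey1 and Heyl held identical values and overlapped between stages (0.05, SE 0.07, limma adjusted p = 0.526). The median size of the difference over all columns was 0.26. A motif score is shared by all factors that read similar letters.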

How the data were processed

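Single-nucleus ATAC-seq reads of 2 fetal and 2 adult libraries were used, grouped by their titles. Per the labels' protocols, 2000 nuclei went into each tagmentation well, in 32 wells per adult and 16 per fetal replicate, followed by sorting of 20 nuclei per well into 768 wells. Per the submitters' processing notes, Bowtie2, MACS2, bedtools and mm10 were used; versions, roles and any shift of cut sites were not given in the sources used here. Deposited read positions were 163 to 200 bases long and were counted without a shift, and the deposited count of reads per nucleus equalled the reads found in all 7846 nuclei. The deposited chromVAR and Cicero values are scores. The deposited class numbers were taken as they stand, and no doublet caller was run, so a barcode can hold more than 1 nucleus. The deposited gene score table was not used.

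Reads of kept nuclei (86.9% to 95.3% of a file, 6028168 to 19304830 per library) were summed per library over every protein-coding gene (RefSeq, GRCm38.p6, the same build as mm10) plus 2 kb, and over the deposited regions. Features averaging 10 or more reads over the libraries were tested with edgeR 4.0.16 (quasi-likelihood, TMM, Benjamini-Hochberg over all of them, adjusted p under 0.05). Each SE is the log2 change divided by the square root of its F statistic. The stage-by-lineage test used library as a block. Motif scores were averaged per library and tested with limma 3.58.1. Classes, adult lineages and links were described without a test. The fits were checked on simulated counts. Alternatives were DESeq2 1.42.0, other filters, scalings, windows, classes and thresholds, a replicate block, and leaving out each library.

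The members and gene lists were chosen with earlier results of these data known. Named were all members, the called pathway genes with the 3 largest changes each way, each member's own promoter regions, up to 2 called, non-overlapping distal regions each way with a mean of at least 20 reads (some are not reported here), the 3 highest link scores and the 2 genes most alike. With 2 libraries per stage the p-values rest on few samples, and stage cannot be told apart from any batch tied to it. Low-count regions are limited by depth.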

Additional observations from a re-analysis of the deposited data

Results flagged for a closer look

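The stage change of Jag2 differed between the sides of the epithelium: the basal log2 change minus the luminal one was -1.84 (SE 0.29, edgeR adjusted p = 1.59e-07). The difference was tested as an interaction over 8 sums of nuclei, 2 from each library. In the scaling of that fit, Jag2 stood at 59.5 and 51.7 CPM in fetal class 9 and at 22 and 25.1 in adult classes 3 and 7. On the basal side it stood at 82.3 and 66.6 in fetal class 4 and at 130 and 97.6 in adult classes 1 and 8. Dll1 differed in the same way by -0.79 (SE 0.24, edgeR adjusted p = 0.0263), a call lost in 4 of 6 alternatives (DESeq2, no library block, without adult replicate 1 and without fetal replicate 2). It stood at 69.8 and 84.6 against 51.4 and 52.9 CPM on the luminal side and at 118 and 119 against 159 and 119 on the basal side. Class and stage coincide in these sums and cannot be told apart. For Jag2 the luminal change was 0.48 against class 3 alone and 2.04 against class 7 alone.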

How the results depend on the processing

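Notch1, Jag2 and Dll1 passed the whole-library stage test in every alternative tried, and Jag2 passed every alternative of the stage-by-lineage test. The stage-by-lineage test was not run with other classes or windows. In the separate comparisons such settings moved Jag2, from 0.48 to 2.04 on the luminal side. On the basal side the 5' end window turned it to 0.18. Equal replicate numbers were not shown to pair samples, although same-numbered deviations correlated at 0.0680 (distal regions) to 0.449 (motif scores), and at 0.292 over gene spans. With a replicate block, 6424 genes and 7 members were called in whole libraries, against 4172 and 4 without it. The 3 added members, Notch2 (-0.20), Jag1 (-0.30) and Hes1 (-0.23), were lower in fetal nuclei. With the block, 4 members were called in the luminal (Notch1 was added) and 1 in the basal comparison, and 63 distal and 10 promoter regions near the members.

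Leaving out 1 library gave 1812 to 4459 called genes in whole libraries, 1400 to 2477 in the luminal, 547 to 867 in the basal (0 members each time) and 407 to 710 in the interaction test (1 to 2 members). It gave 45 to 60 distal and 3 to 10 promoter regions near the members, and 2514 to 3057 promoter regions in all. The counts fell most without fetal replicate 2 (1812 genes in whole libraries, 3 promoter regions near the members) and without adult replicate 1 (547 and 407 genes, 45 distal regions).

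DESeq2 called 1468 genes in the luminal, 301 (0 members) in the basal and 274 (1 member) in the interaction test, and 24872 distal and 2622 promoter regions, of which 38 and 6 lay near the members. The 5' end window called 1353 of 11714 tested genes (1 member) in the luminal and 246 of 10892 (0 members) in the basal comparison. Class 3 alone gave 1624 genes (1 member), class 7 alone 4336, class 1 alone 1695 (0 members) and class 8 alone 186. The gene span alone and total-read scaling left 0 members in the basal comparison. Without the library block the interaction test called 534 genes (1 member). With a minimum of 50 reads, 15301 of 28608 tested distal regions were called, against 43423 of 122865 in the main fit. Near the members these were 31 distal and 6 promoter regions. Total reads also gave 6 promoter regions near the members. A distance of 100 kb, which takes in more regions, gave 106 called distal regions. Mature against progenitor kept 1 member at 2-fold and 1 with classes 3, 8 and 11 alone. Links numbered 127 at a score of 0.05 and 12 at 0.25.

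Signs changed only for values that had not passed. In whole libraries Notch3 was 0.27 and Notch4 -0.019 with the 5' end window, and Notch3 ran from -0.21 to 0.0506 with 1 library left out. In the luminal comparison the 5' end window gave Notch3 0.22 and Notch4 -0.11, class 3 alone gave Notch3 0.20, Hes1 0.01716 and Hey1 -0.001015, class 7 alone gave Jag1 0.17, and the gene span alone gave Jag1 0.40 and Hey1 -0.0402. Hes1 was 0.006916 with DESeq2, 0.0213 with a minimum of 50 reads and 0.0229 with total reads. With 1 library left out, Notch3 ran from -0.28 to 0.0796, Jag1 from -0.19 to 0.11, Hes1 from -0.17 to 0.19 and Hey1 from -0.000238 to 0.086. In the basal comparison the 5' end window gave Notch3 -0.16, Jag2 0.18 and Rbpj -0.0633, class 1 alone gave Rbpj -0.0733, no filter gave Rbpj -0.007278 and class 8 alone gave Hes1 0.12. With 1 library left out, Dll1 ran from -0.39 to 0.0111, Hes1 from -0.53 to 0.24, Hey1 from -0.37 to 0.28 and Rbpj from -0.14 to 0.25. In the interaction test Hey1 was 0.00013 without the library block, and ran from -0.46 to 0.22 and Hes1 from -0.54 to 0.23 with 1 library left out. Among promoter regions with 1 library left out, those of Notch2 ran from -0.12 to 0.14, Notch3 from -0.50 to 0.36, Notch4 from -0.54 to 0.19 and Hes1 from -0.40 to 0.27 and from -0.21 to 0.0304. The Hey1 and Heyl motif score ran from -0.0302 to 0.14. The cause of these changes was not tested.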

Other observations

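Mean motif scores were also taken by class. The Rbpj score set the adult luminal lineages apart, at 0.208 and 0.144 in class 7 and 0.123 and 0.178 in class 3 in the 2 adult libraries, against -0.133 and -0.0326 in class 2 and -0.11 and -0.0582 in class 11. In class 8 the libraries disagreed in sign, at 0.185 and -0.0137. The Hes1 score was lowest in class 3, at -0.324 and -0.249, and class 8 overlapped it, at -0.288 and -0.1645. The score was 0.0324 and -0.0759 in class 7 and 0.007 and 0.00343 in class 2. It was highest in the stromal-like class 6, at 0.331 and 0.313. The score shared by Hey1 and Heyl was low in class 8, at -0.299 and -0.334, and in class 3, at -0.222 and -0.278, and stood close together in classes 7 (0.0931 and 0.0318) and 2 (0.0852 and 0.0324). These are descriptions of scores centred near 0, with no test between classes.

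A further distal region passed the stage test. Inside Notch4, chr17:34576154-34577153 had 12.8 and 26.2 CPM in fetal and 5.11 and 7.99 in adult libraries (1.62, SE 0.34, edgeR adjusted p = 0.000212). The fetal libraries differed, and without fetal replicate 2 the difference was 1.00 and did not pass (edgeR adjusted p = 0.0846). In adult nuclei it held 4.47 and 7.58 RPM (reads per 1000000 of all reads of those nuclei) in progenitor-like nuclei, against 1.24 and 1.75 in basal-like and 0.348 and 0.978 in mature luminal-like nuclei.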
